A study of Mus musculus with 12 samples.

Results

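The 9 genes described here are those by which bone-forming osteoblasts build and mineralise their matrix: Bglap, Bglap2 and Bglap3, Ibsp, Alpl, Ifitm5, Car3, Sparc and Pth1r. They were chosen by symbol, and all 9 were found in each of the 12 count files, among 24062 symbols in all. RNA was sequenced from mouse C57BL/6J bone marrow cells in 4 groups of 3 libraries. The rMSC group was cultured stroma transduced with 5 genes, namely Irf3, Irf7, Klf7, Ostf1 and Xbp1, called revitalized MSCs (mesenchymal stromal cells) in the labels. The control group was cultured stroma transduced with a control vector. The cultures grew from fresh cells positive for Scf-GFP, in medium with 20% fetal bovine serum and 10 ng/ml FGF-basic. GFPpos and GFPneg were freshly sorted, untransduced cells lacking CD45 (a marker of white blood cells), Ter119 (of the red cell lineage) and CD31 (of endothelium). They were positive or negative for Scf-GFP, a green fluorescent reporter of the stem cell factor gene, listed as Kitl. The ages and numbers of the animals, the vector and its promoter, and whether libraries came from separate animals or cultures are not given in the sources used here, so p-values measure the spread between these libraries only.

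Osteoblasts arise from stromal cells of the marrow, lay down collagen and then fill it with calcium phosphate. Alkaline phosphatase (Alpl) clears pyrophosphate, which blocks crystal growth, and releases phosphate. Bone sialoprotein (Ibsp) and osteonectin (Sparc) bind collagen and calcium, osteocalcin (Bglap and Bglap2) binds mineral after a vitamin K-dependent carboxylation, and Pth1r is the receptor by which parathyroid hormone and its related peptide reach these cells. Osteocalcin and bone sialoprotein are known as late genes of this lineage, while Sparc is made by many connective tissue cells.

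The 3 Bglap genes lie side by side and are nearly identical in sequence, which bears on how their reads can be told apart. On the minus strand of chromosome 3 of GRCm38 (GENCODE M21), Bglap3 spans 88368616 to 88372743, Bglap2 spans 88377736 to 88378699 and Bglap spans 88383501 to 88384464, with 4992 bases between Bglap3 and Bglap2 and 4801 between Bglap2 and Bglap. Their coding sequences are 285 bases each, without the stop codon, and capitals mark the bases that differ from Bglap.
Bglap: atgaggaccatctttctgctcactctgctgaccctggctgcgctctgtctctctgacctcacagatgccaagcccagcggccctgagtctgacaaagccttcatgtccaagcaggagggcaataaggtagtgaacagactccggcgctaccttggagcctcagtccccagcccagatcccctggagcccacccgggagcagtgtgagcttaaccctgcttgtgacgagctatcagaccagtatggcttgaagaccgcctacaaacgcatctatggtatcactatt
Bglap2: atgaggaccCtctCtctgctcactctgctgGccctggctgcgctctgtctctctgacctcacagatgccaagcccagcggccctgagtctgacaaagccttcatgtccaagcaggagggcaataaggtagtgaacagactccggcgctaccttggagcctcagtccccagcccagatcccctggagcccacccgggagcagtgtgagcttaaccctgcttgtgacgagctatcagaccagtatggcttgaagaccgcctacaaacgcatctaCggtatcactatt
Bglap3: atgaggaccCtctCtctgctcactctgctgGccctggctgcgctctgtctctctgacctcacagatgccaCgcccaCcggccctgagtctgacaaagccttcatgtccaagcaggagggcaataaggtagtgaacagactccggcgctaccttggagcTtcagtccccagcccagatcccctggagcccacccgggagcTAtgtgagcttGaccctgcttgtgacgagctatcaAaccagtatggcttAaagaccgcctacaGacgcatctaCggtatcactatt
Bglap2 differs from Bglap at 4 of the 285 bases (98.6% identical), Bglap3 differs from Bglap at 13 (95.4%) and Bglap3 differs from Bglap2 at 9 (96.8%). Of the stretches as long as a 150-base read that the annotated Bglap transcripts can give, 92 of 291 (31.6%) occur unchanged in Bglap2, and none occurs in Bglap3. Of the 322 such stretches of Bglap2, the same 92 (28.6%) occur in Bglap. How reads that match several genes were counted is not given in the sources used here, so the split between Bglap and Bglap2 is uncertain, while their sum is less so.

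The other members lie apart. On GRCm38, Ibsp spans 104299171 to 104311469 of chromosome 5 (plus strand), Alpl spans 137741733 to 137796384 of chromosome 4 (minus strand) and Car3 spans 14863512 to 14872523 of chromosome 3 (plus strand). Sparc spans 55394500 to 55423183 of chromosome 11 (minus strand). Ifitm5 spans 140948958 to 140950291 of chromosome 7 (minus strand), where the annotated gene Gm45717 overlaps it on the same strand. Pth1r spans 110722085 to 110747145 of chromosome 9 (minus strand) and overlaps Myl3, a myosin gene on the other strand. Whether counting used the strand is not given in the sources used here. Myl3 had at most 0.283 CPM (the count scaled to library size, with TMM factors) in any library.

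Since all members were highest in fresh stroma, their RefSeq promoter windows (GRCm38.p6, 250 bases before to 50 after the start) were searched for the core letters bound by Runx2, the factor that commits cells to the osteoblast lineage. The RefSeq table held 12 windows for 7 of the 9 members, all but Bglap2 and Car3. AACCACA, on either strand, was in none of the 12 and in 5.27% of 32851 windows of all genes. The shorter ACCACA, which lies within AACCACA and was searched after the longer letters gave no match, was in 2 of the 12, against 16.8% of all windows. The matches were on the gene's own strand in Bglap, 132 bases before the start, and in Sparc, 35 bases after it. A match is a description of letters only. The windows of Bglap (chr3:88384417-88384716, minus strand), Sparc (chr11:55420031-55420330, minus strand) and, as the late gene with most counts and no match, Ibsp (chr5:104299037-104299336, plus strand) are shown with ACCACA in capitals.
Bglap promoter: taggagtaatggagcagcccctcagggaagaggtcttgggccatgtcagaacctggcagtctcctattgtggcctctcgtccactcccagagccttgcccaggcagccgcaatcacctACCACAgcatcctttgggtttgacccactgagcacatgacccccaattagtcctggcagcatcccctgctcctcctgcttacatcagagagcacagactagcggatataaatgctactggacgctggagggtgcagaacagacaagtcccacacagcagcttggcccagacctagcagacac
Sparc promoter: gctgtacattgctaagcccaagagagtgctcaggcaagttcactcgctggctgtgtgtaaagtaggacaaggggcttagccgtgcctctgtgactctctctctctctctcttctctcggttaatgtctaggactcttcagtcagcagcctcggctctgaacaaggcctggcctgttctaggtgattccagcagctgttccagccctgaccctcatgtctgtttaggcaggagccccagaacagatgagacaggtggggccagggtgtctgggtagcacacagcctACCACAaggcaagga
Ibsp promoter: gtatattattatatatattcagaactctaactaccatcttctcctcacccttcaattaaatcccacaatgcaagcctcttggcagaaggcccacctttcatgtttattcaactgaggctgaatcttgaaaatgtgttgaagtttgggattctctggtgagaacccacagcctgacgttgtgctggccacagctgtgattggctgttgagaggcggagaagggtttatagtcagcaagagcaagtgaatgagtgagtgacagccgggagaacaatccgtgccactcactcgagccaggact

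Libraries held 60507051 to 85353566 counts over 13639 to 15461 genes, so 3 counts, taken as the floor, stand for 0.0358 to 0.0547 CPM. Such floors and the intervals below cover counting error only, since these reads carry no molecular identifiers. All 5 transduced genes were higher in every rMSC library than in any control library, for example Irf3 at 479 to 485 CPM in rMSC and 19.9 to 21.2 in control. Summed markers of perivascular stroma (Cxcl12, Lepr, Adipoq and others) stood at 2828 to 2877 CPM in rMSC, 8263 to 8395 in control and 31689 to 47686 in GFPpos, against 46.2, 0.322 and 3.18 in GFPneg 1, 2 and 3. In the cultures, Lepr was at 16.4 to 19.1 CPM in rMSC and 0.179 to 0.386 in control, and Adipoq at no more than 0.690 CPM in either. Pdgfrb differed from these, at 613 to 626 CPM in rMSC, 1068 to 1115 in control and 664 to 921 in GFPpos. Of these 10 markers, 3 were called higher and 4 lower in rMSC against control (adjusted p under 0.05, edgeR), beside 24.5% and 25.5% of all genes tested. Those higher were Lepr, Foxc1 and Kitl, with Kitl at 236 to 257 CPM in rMSC and 28.8 to 37.1 in control. The sums of the cultures differed mainly by Cxcl12, at 1203 to 1233 CPM in rMSC and 5566 to 5772 in control, which was not called (adjusted p = 0.219). GFPpos libraries differed in blood cell markers, with megakaryocyte markers at 204.7, 3194 and 2813 CPM, granulocyte markers at 4322, 1401 and 908.0 and erythroid markers at 1867, 1476 and 990.8 in GFPpos 1, 2 and 3. In bulk RNA, fewer cells of a type and less RNA per cell cannot be told apart.

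All 9 genes were at their highest in freshly sorted GFPpos stroma. Of the members in GFPpos, Sparc ranked 4 among all genes by mean CPM, Ibsp 7, Bglap 22, Bglap2 41, Car3 115, Alpl 128, Pth1r 335, Ifitm5 1220 and Bglap3 9691. Per length of exons, in RPKM (CPM per 1000 bases), the mean levels in GFPpos were 4774 ± 650 for Sparc, 4500 ± 1360 for Bglap, 4449 ± 1183 for Ibsp and 3827 ± 1142 for Bglap2 (SD, n = 3). The SDs of these 4 overlap, but the libraries moved in step: Bglap2 was the lowest of the 4 in each GFPpos library (2611, 3993 and 4876 RPKM) and stood below Bglap in each (3069, 4655 and 5775 RPKM), while Sparc was the highest in GFPpos 1 and 2 and Bglap in GFPpos 3. The places of Bglap and Bglap2 in this order rest on the uncertain split of their reads, which would act alike in every library. A lower tier on the RPKM scale held Car3 at 272 ± 60.2, Ifitm5 at 186 ± 54.2, Alpl at 177 ± 18.8 and Pth1r at 123 ± 19.6 (SD, n = 3). Library values of Ifitm5 overlapped those of Car3 and of Alpl, while the 3 Pth1r values (103 to 142 RPKM) lay below the 3 Alpl values (159 to 197 RPKM). Bglap3 stood at 3.16 ± 1.63 RPKM. In the cultures the order was another: Sparc had 614 ± 9.15 RPKM in rMSC and 1185 ± 9.72 in control, while no other member had a group mean above 9.81 RPKM in rMSC or 5.38 in control.

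**Figure D1:**
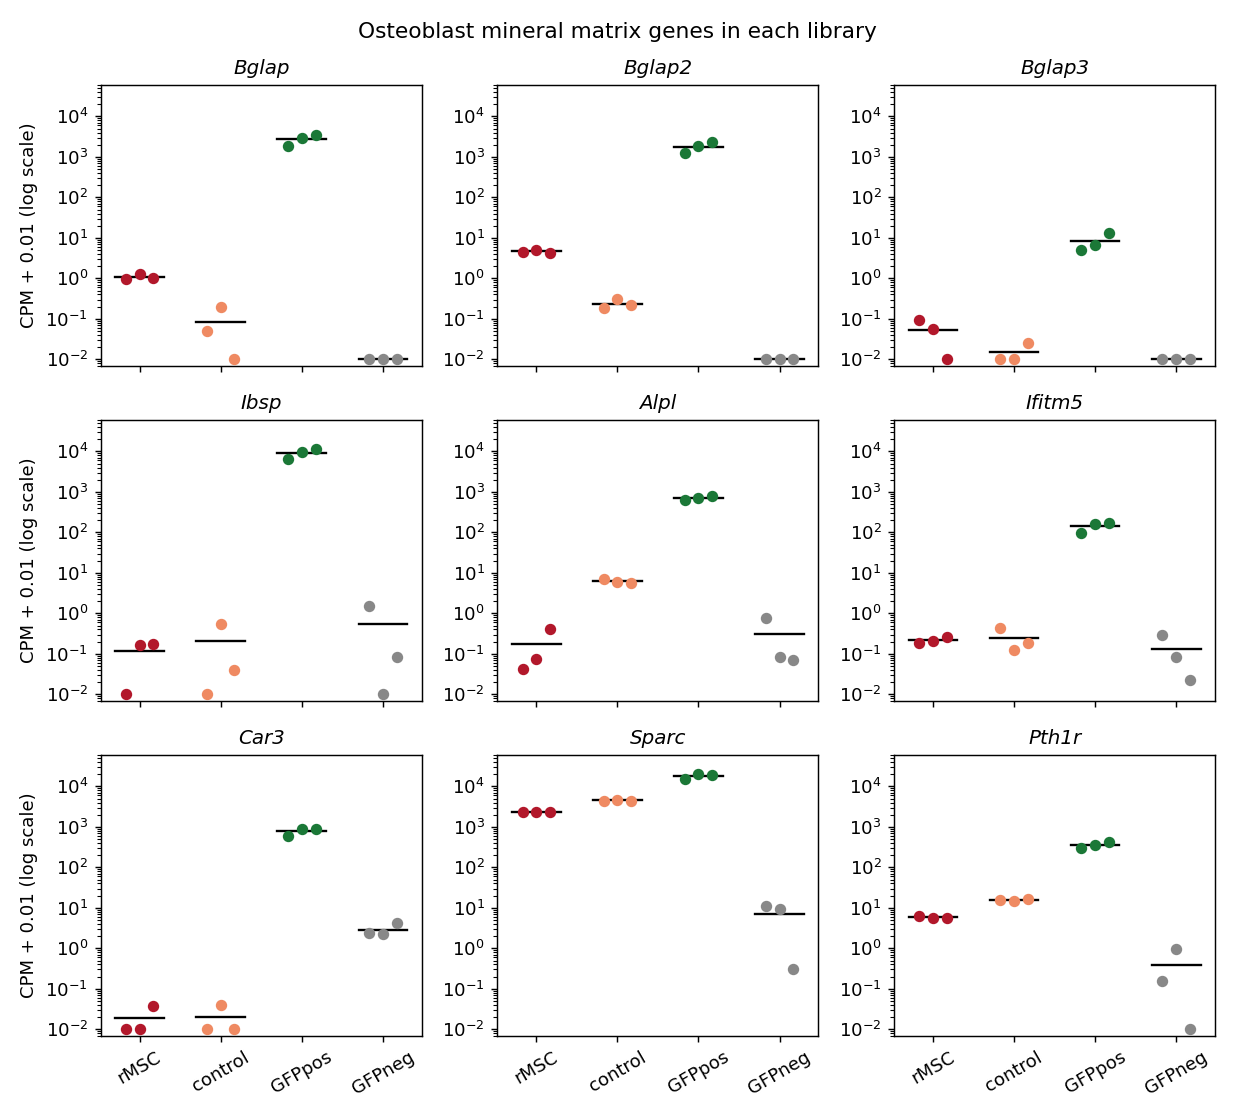
Level of each of the 9 genes in each of the 12 libraries, as CPM plus 0.01 on a log scale, with points for libraries and a black line for the group mean. GFPpos is the highest group in every panel, Sparc alone stays above 2000 CPM in both cultures, and the Bglap genes lie at 0 in GFPneg.

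The fresh stroma was not uniform in these genes. GFPpos 1 was the lowest of the 3 GFPpos libraries for all 9 members, and GFPpos 3 the highest for all but Sparc, which was highest in GFPpos 2. The highest library exceeded the lowest by 2.58 times for Bglap3, 1.88 for Bglap, 1.87 for Bglap2, 1.82 for Ifitm5 and 1.73 for Ibsp, and by 1.52 for Car3, 1.38 for Pth1r, 1.31 for Sparc and 1.23 for Alpl. The 9 genes together took 26611, 36890 and 38119 CPM in GFPpos 1, 2 and 3. GFPpos 1 was also the library with the most granulocyte and erythroid and the fewest megakaryocyte markers, and the part of those in the members' levels was not tested. The cartilage collagen gene Col2a1 was likewise lowest in GFPpos 1 and highest in GFPpos 3, at 934.4, 2257 and 3227 CPM, and its part was not tested either.

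The first comparison is GFPpos against GFPneg, which asks what marks marrow stroma that makes stem cell factor. The GFPneg libraries held few reads of stromal markers and many of erythroid ones: erythroid markers summed to 991 to 1867 CPM in GFPpos and 6409 to 6901 in GFPneg, and fibroblast markers to 3062 to 3985 CPM in GFPpos and 2.09 to 4.11 in GFPneg. Their part in the members' differences was not tested. RNA of 8 members was above 90 CPM in every GFPpos library, Bglap3 was lower, and GFPneg held traces or none. Bglap was at 1897, 2877 and 3569 CPM in GFPpos 1, 2 and 3, against 0 counts in each GFPneg library, at least 71064-fold higher against the floor of 3 counts per library. By the same bound Bglap2, at 1230, 1881 and 2297 CPM in GFPpos, was at least 46060-fold and Bglap3, at 5.11, 6.63 and 13.2 CPM, at least 212.2-fold higher than in GFPneg, where both were at 0 counts. No GFPneg library held a single read of the osteocalcin cluster.

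The other 6 members had some reads in GFPneg, uneven between its libraries. Ibsp was at 6491, 9866 and 11246 CPM in GFPpos, against 1.51, 0 and 0.0746 CPM in GFPneg (102, 0 and 6 counts), a log2 fold change of 14.16 ± 1.63 (SE, adjusted p = 1.18e-05, edgeR's quasi-likelihood test). Alpl was at 642.8, 705.7 and 793.8 CPM in GFPpos, against 0.738, 0.0716 and 0.0621 in GFPneg (11.36 ± 0.73 on the log2 scale, adjusted p = 1.24e-07). GFPneg 1 carried most of both, and without it the log2 differences were 17.88 for Ibsp and 13.35 for Alpl. Ifitm5, which encodes a membrane protein of osteoblasts (Bril) needed for normal bone, was at 95.2, 157.6 and 173.6 CPM in GFPpos, against 0.281, 0.0716 and 0.0124 in GFPneg (log2 10.27 ± 0.59, adjusted p = 5.47e-08, and 11.65 without GFPneg 1). GFPneg 1 also held 36.5 CPM of Cxcl12, a stromal gene at 0.0239 and 0.373 CPM in GFPneg 2 and 3, and its part in these values was not tested.

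The traces of Sparc, Pth1r and Car3 were spread otherwise. Sparc was at 15367, 20161 and 18724 CPM in GFPpos, against 10.96, 9.40 and 0.298 CPM in GFPneg, close in GFPneg 1 and 2 (log2 11.36 ± 1.15, adjusted p = 4.26e-06). Pth1r was at 301.2, 361.8 and 416.0 CPM in GFPpos, against 0.148, 0.955 and 0 in GFPneg (log2 9.87 ± 0.69, adjusted p = 2.46e-07, and 12.34 without GFPneg 2). GFPneg 2, where Pth1r and Col2a1 (48.5 CPM) were highest, held almost no Cxcl12. Car3, a cytosolic carbonic anhydrase best known from muscle and fat, was the most evenly kept in GFPneg, at 581.5, 873.5 and 886.5 CPM in GFPpos, against 2.32, 2.23 and 4.16 CPM in GFPneg (log2 8.07 ± 0.35, adjusted p = 6.44e-09). Each GFPneg library thus held 0.286 to 0.534% of the GFPpos mean of Car3, and at most 0.265% of that of any other member.

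All 9 members were called higher in GFPpos, where 40.5% of the 15163 genes tested were called higher, 36.5% lower and 77% in all, at an adjusted p under 0.05. Bglap3 passed the filter only through GFPpos and so had to differ. No member's groups overlapped, as for 37.5% of all genes in that direction and 37.8% in the other. The members' median log2 fold change was 11.36, also with the Bglap genes at their bounds, against 0.08 over all genes tested. Other scaling (RLE factors) shifts that median of all genes to 0.20 and changes no member's call.

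Control against GFPpos asks what culture keeps of the fresh stroma's programme, though the control cells also carry a vector. Culture retained Sparc in part and almost nothing of the late osteoblast genes. All 9 members fell and none rose, where 35.9% of genes were called lower, 32.5% higher and 68.3% in all, and the members' median log2 fold change was -10.31, against -0.04 over all genes. The groups did not overlap for any member, as for 35.7% of all genes in that direction. Bglap3 and Car3 pass the filter on low counts only through the fresh libraries. For Bglap3 these are the GFPpos libraries alone, so it had to differ from GFPpos. Car3 also had 157, 187 and 335 counts in GFPneg 1, 2 and 3.

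Sparc was at 4465, 4530 and 4467 CPM in control, 24.8% of the GFPpos mean, a log2 fold change of -2.01 ± 0.77 (adjusted p = 0.0381). This call does not hold with the replicate number as a block (adjusted p = 0.0576), nor without any 1 of the control libraries (0.0944 to 0.0961), any 1 of the rMSC libraries (0.0548 to 0.0555), GFPpos 2 (0.0746) or GFPpos 3 (0.0595). With the 6 libraries of this pair fitted alone it was -2.04 ± 0.15 (adjusted p = 5.79e-05). Pth1r kept 4.38% of its GFPpos mean, at 15.7, 15.1 and 16.4 CPM in control (log2 fold change -4.51 ± 0.52, adjusted p = 1.88e-05).

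Alpl, the early mineralisation enzyme, stood at 6.90, 5.98 and 5.76 CPM in control, 0.870% of its GFPpos mean (-6.84 ± 0.58 on the log2 scale, adjusted p = 1.83e-06). Ifitm5 was at 0.426, 0.115 and 0.179 CPM in control (-9.18 ± 0.55, adjusted p = 1.71e-07). The late genes were close to the floor. Bglap had 3, 13 and 0 counts in control (log2 fold change -15.13 ± 0.66, adjusted p = 1.66e-07, and -16.89 without control 2), and Bglap2 had 13, 21 and 14 (-12.94 ± 0.37, adjusted p = 1.99e-08). Ibsp had 0, 38 and 2 counts in control (-15.55 ± 1.72, adjusted p = 1.49e-05), and without control 2 its log2 fold change was -19.14. Control 2 thus held most of the Ibsp and Bglap reads of its group. Car3 had 0, 2 and 0 counts, so that GFPpos was 79849 times higher with a 95% counting interval of 22104 to 659341, and Bglap3 had 1 count in all, with GFPpos 1675 times higher (300.2 to 66198).

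rMSC against GFPpos asks how near the transduced culture comes to the fresh stroma. It shares the GFPpos libraries with the comparison before it, so the values are set side by side. All 9 members again fell and none rose, where 38.2% of genes were called lower, 33.4% higher and 71.6% in all, with a median of -9.37, against -0.08 over all genes. No member's groups overlapped, as for 37.9% of all genes in that direction and 36.1% in the other. The log2 fold changes against GFPpos were -8.61 ± 0.30 in rMSC and -12.94 ± 0.37 in control for Bglap2, and -11.33 ± 0.56 in rMSC and -15.13 ± 0.66 in control for Bglap. They ran the other way for Alpl, at -12.01 ± 0.76 in rMSC and -6.84 ± 0.58 in control, for Pth1r, at -5.94 ± 0.56 in rMSC and -4.51 ± 0.52 in control, and for Sparc, at -2.96 ± 0.80 in rMSC and -2.01 ± 0.77 in control. For Ifitm5 (-9.37 ± 0.56 in rMSC, -9.18 ± 0.55 in control) and Ibsp (-16.31 ± 1.78 in rMSC, -15.55 ± 1.72 in control) the distances lay within their errors. Bglap3, which passes the filter only through GFPpos and so had to differ, had 5, 3 and 0 counts in rMSC and 413, 364 and 744 in GFPpos. Car3 had 2 counts in the rMSC libraries, with GFPpos 73991 times higher (20482 to 610970). Adjusted p-values for the remaining 7 members of rMSC against GFPpos ran to at most 0.00651, that of Sparc.

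**Figure D2:**
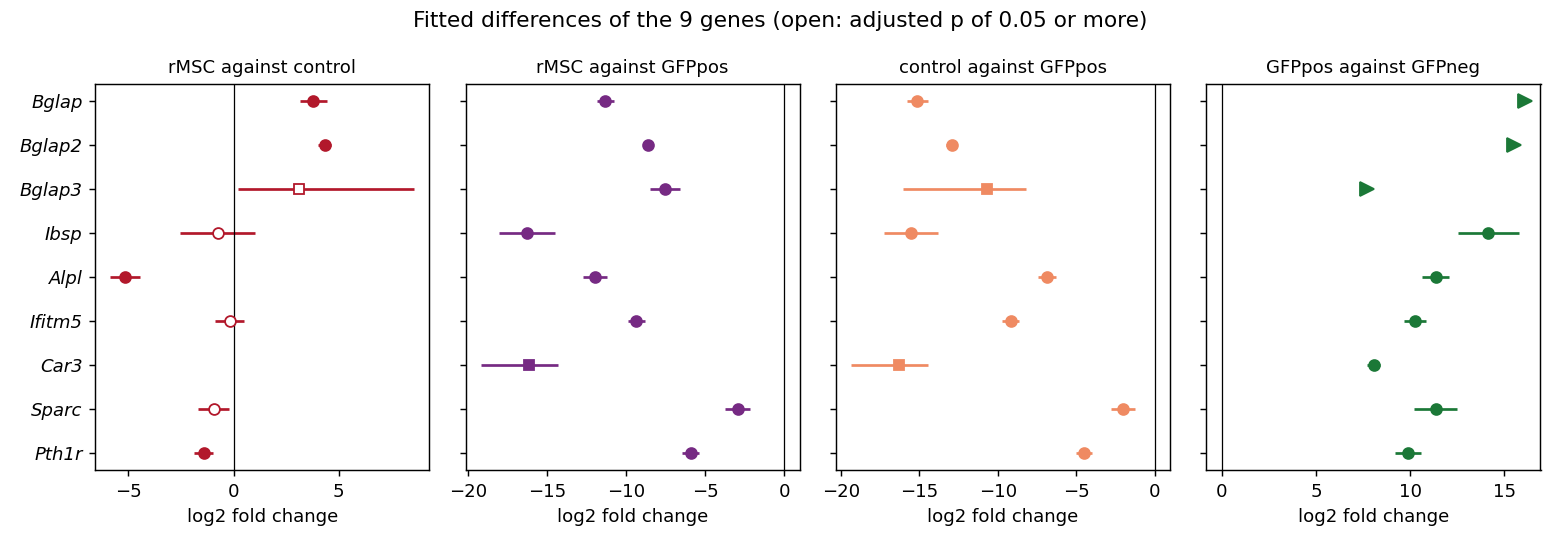
Log2 fold changes of the 9 genes in the 4 comparisons, circles with the SE of the fit, squares with the 95% counting interval of a ratio of counts, and triangles at a lower bound. Open symbols have an adjusted p of 0.05 or more, and Car3 is left out of rMSC against control, where each group had 2 counts. In rMSC against control the Bglap genes lie to the right and Alpl, Sparc and Pth1r to the left.

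rMSC against control asks what the 5 genes change in culture. The osteocalcin genes were higher in rMSC, while Alpl and Pth1r were lower. Both directions stayed far from the fresh cells: Bglap2 reached 0.256% of its GFPpos mean in rMSC and 0.0126% in control, and Alpl 0.0229% in rMSC and 0.870% in control. Of the 9 members, 2 were called higher and 2 lower, with 24.5% and 25.5% of all genes called in those directions and 50.1% in either. The number of calls is therefore near the background, and the median of the members, -0.19, stood beside -0.01 over all genes. Groups did not overlap for 2 members that were higher and 3 that were lower, beside 35% and 36.7% of all genes.

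Bglap2 was at 4.57, 5.08 and 4.202 CPM in rMSC (280, 325 and 298 counts), against 0.173, 0.302 and 0.209 in control (13, 21 and 14 counts). Every rMSC library was above every control library, and the log2 fold change was 4.33 ± 0.30 (adjusted p = 5.08e-06). Bglap was at 0.931, 1.297 and 1.001 CPM in rMSC, against 0.0400, 0.187 and 0 in control, again without overlap (log2 3.80 ± 0.63, adjusted p = 0.000986, and 5.56 without control 2). Bglap3 had 5, 3 and 0 counts in rMSC, against 0, 0 and 1 in control, a ratio of 8.63 with a counting interval of 1.16 to 383, and the groups overlapped (adjusted p = 0.129).

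A sum over the 3 genes sets aside the split of reads between them, though reads matching several genes may be missing from it. So summed, the osteocalcin cluster stood at 5.74 ± 0.62 CPM in rMSC and 0.309 ± 0.156 in control (SD, n = 3 each), a log2 fold change of 4.21 ± 0.35 (adjusted p = 1.58e-05). In GFPpos the sum was 4592 ± 1382 CPM. The make-up of these reads is given as shares. Bglap2 gave 81.9, 79.1 and 80.8% of the cluster's reads in rMSC 1, 2 and 3, with exact 95% binomial intervals between 74.8 and 85.8%. It gave 81.2, 61.8 and 93.3% in control, from 16, 34 and 15 reads, with intervals between 43.6 and 99.8%. In GFPpos it gave 39.3, 39.5 and 39.1%. All 6 culture libraries lay above all 3 of GFPpos, and rMSC did not differ from control beyond the intervals. With 3 libraries against 3 an exact permutation test cannot give less than p = 0.1, so none was run. These shares rest on the split of reads between the near-identical genes shown above.

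**Figure D3:**
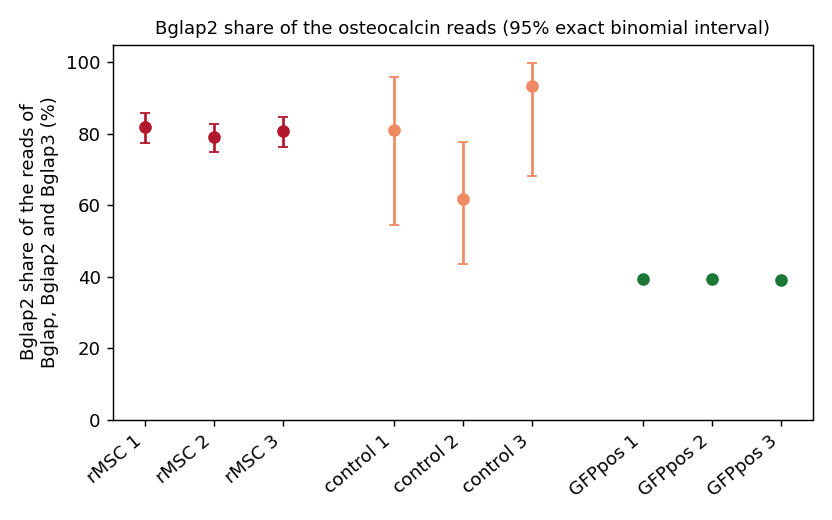
Share of Bglap2, in percent, among the reads of Bglap, Bglap2 and Bglap3 in each library of rMSC, control and GFPpos, with exact 95% binomial intervals. GFPneg held no reads of the 3 genes, GFPpos libraries lie between 39.1 and 39.5% and the rMSC libraries between 79.1 and 81.9%.

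Alpl was at 0.0327, 0.0625 and 0.395 CPM in rMSC (2, 4 and 28 counts), against 6.90, 5.98 and 5.76 in control (518, 416 and 386 counts). Every rMSC library lay far below every control library, with rMSC 3 the highest of its group. The log2 fold change was -5.16 ± 0.69 (adjusted p = 0.000118), and -6.97 without rMSC 3. Pth1r, the hormone receptor, was at 6.24, 5.74 and 5.57 CPM in rMSC, against 15.7, 15.1 and 16.4 in control, with no overlap (-1.43 ± 0.47, adjusted p = 0.0274). That call is lost without any 1 of the 6 culture libraries (adjusted p = 0.0652 to 0.0909) and with DESeq2 (0.237), and the 6 libraries fitted alone gave an adjusted p of 9.47e-09.

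Sparc was at 2312, 2363 and 2297 CPM in rMSC, against 4465, 4530 and 4467 in control. The groups were tight, with coefficients of variation of 1.49% in rMSC and 0.821% in control, and stood apart. Yet the test with 1 spread shared over all 12 libraries did not call the difference (log2 -0.95 ± 0.75, adjusted p = 0.324), while the 6 culture libraries alone gave -0.95 ± 0.02 (adjusted p = 8.89e-14). Sparc ranked 24 among all genes by mean CPM in rMSC and 13 in control, and it made up 99.5% of the members' summed CPM in every culture library.

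The remaining members were near the floor in both cultures. Ibsp had 0, 10 and 12 counts in rMSC, against 0, 38 and 2 in control (log2 -0.76 ± 1.78, adjusted p = 0.764). Ifitm5 had 11, 13 and 18 counts in rMSC, against 32, 8 and 12 in control (-0.19 ± 0.69, adjusted p = 0.861), and Car3 had 2 counts in each group. Their groups overlapped, and no difference was detectable beyond the spread between these libraries.

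Partner genes of the members were taken from 8 lists of mineralisation and of the members' families, chosen with earlier results of these data known. Their counts of calls stand beside the shares over all genes tested. These were 24.5% higher and 25.5% lower in rMSC against control. They were 32.5% and 35.9% in control against GFPpos, and 33.4% and 38.2% in rMSC against GFPpos. Of 9 tested genes that handle phosphate, pyrophosphate and matrix vesicles, 4 were called higher and 2 lower in rMSC against control (median log2 fold change 0.32). Enpp1, which makes the inhibitor pyrophosphate, was at 8.66 ± 0.74 CPM in rMSC and 373 ± 14.7 in control (log2 -5.43 ± 0.29, adjusted p = 1.54e-07, SD with n = 3 each). Ank, whose protein is needed for pyrophosphate outside the cell, was at 1177 ± 43.5 CPM in rMSC and 219 ± 3.27 in control (2.43 ± 0.13, adjusted p = 1.82e-07). Anxa5, an annexin of matrix vesicles, and Slc20a2, a phosphate transporter, rose by 1.02 ± 0.08 and 0.64 ± 0.06 on the log2 scale. Alpl and Enpp1, the enzymes that remove and make pyrophosphate, were thus both lower in rMSC. In control against GFPpos 6 of these 9 were called higher and 3 lower, and in rMSC against GFPpos 5 higher and 4 lower. Smpd3, a sphingomyelinase needed for mineralisation, was at 1.52 ± 0.38 CPM in rMSC, 14.6 ± 1.31 in control and 301 ± 82.4 in GFPpos.

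Acidic phosphoproteins of bone, the family to which Ibsp belongs, were listed together with Phex and the kinase gene Fam20c. The genes of this list were not alike in culture. Osteopontin (Spp1) was at 3671 ± 102 CPM in rMSC, 8400 ± 252 in control and 5858 ± 1731 in GFPpos, so that it fell in rMSC against control (log2 -1.19 ± 0.42, adjusted p = 0.0351) and was not called in control against GFPpos (0.52 ± 0.42, adjusted p = 0.284). Dmp1 and Phex, genes of osteocytes, were like Ibsp far lower in both cultures than in GFPpos. Dmp1 was at 0.294 ± 0.119 CPM in rMSC, 0.150 ± 0.057 in control and 443 ± 224 in GFPpos. Phex was at 0.639 ± 0.462 CPM in rMSC, 2.72 ± 0.46 in control and 198 ± 48.1 in GFPpos. Unlike Ibsp, Phex was called lower in rMSC against control (log2 -2.10 ± 0.39, adjusted p = 0.00108). Fam20c, the kinase that phosphorylates the acidic phosphoproteins, rose by 0.51 ± 0.12 on the log2 scale in rMSC against control. Over the 5 tested, 1 (Fam20c) was higher and 2 (Spp1 and Phex) lower in rMSC against control (median -1.19). The sign of that median rests on Mepe, which was at 0 in rMSC and at no more than 0.0149 CPM in control. With Mepe set to the floor of 3 counts in rMSC, the median was 0.51. In control against GFPpos 4 were lower (median -6.19).

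Osteocalcin binds mineral only after carboxylation by Ggcx with vitamin K recycled by Vkorc1. Of 6 tested genes of this system, 1 was higher and 3 lower in rMSC against control (median -0.58). Matrix Gla protein (Mgp), an inhibitor of calcification, was at 4863 ± 166 CPM in rMSC and 515 ± 39.6 in control (log2 3.24 ± 0.50, adjusted p = 0.000313), against 315 ± 133 in GFPpos. Protein S (Pros1) was at 38.6 ± 3.37 CPM in rMSC and 733 ± 12.3 in control (-4.25 ± 0.37). Vkorc1 and Vkorc1l1 were lower in rMSC, with log2 fold changes of -1.02 ± 0.12 and -1.07 ± 0.09. In control against GFPpos 2 were higher and 1 lower (median 0.48), the lower being Gas6, a ligand that is itself carboxylated, at 352 ± 10.9 CPM in control and 2967 ± 1103 in GFPpos.

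Around Pth1r, 15 genes of the receptor's signalling were tested, of which 6 were called higher and 6 lower in rMSC against control (median 0.24). Among those lower, the beta-arrestin gene Arrb1 was at 2.92 ± 0.75 CPM in rMSC and 24.1 ± 0.58 in control (log2 -3.04 ± 0.17, adjusted p = 2.02e-07) and the cAMP phosphodiesterase gene Pde4d at 3.84 ± 0.62 in rMSC and 28.6 ± 2.05 in control (-2.90 ± 0.19). Rgs2, a brake on G proteins and a known target of the receptor, fell by 1.51 ± 0.28. Tnfsf11 (RANKL), which osteoblast-lineage cells make to drive osteoclasts and which parathyroid hormone induces, had 0.0327, 0 and 0 CPM in rMSC, against 21.5, 27.9 and 25.6 in control (adjusted p = 2.28e-05). Pthlh, a ligand of the receptor, is named after its values were seen: it was at 11.5, 10.9 and 13.3 CPM in rMSC, against 0.213, 0.115 and 0.373 in control (5.66 ± 0.65, adjusted p = 0.000117). The G protein genes Gna11, Gnaq and Gnas, also named after their values were seen, were among those higher. Their log2 fold changes were 1.106 ± 0.092, 0.795 ± 0.170 and 0.624 ± 0.078. In control against GFPpos 7 of the 15 were higher and 3 lower (median 0.27), and in rMSC against GFPpos 6 higher and 6 lower (median 0.17).

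The families of Sparc, Ifitm5 and Car3 are given next. Of 5 tested relatives of Sparc, 2 were higher and 3 lower in rMSC against control (median -2.30). Smoc2 was at 584 ± 26.5 CPM in rMSC and 186 ± 4.99 in control (log2 1.65 ± 0.26, adjusted p = 0.000368), and Fstl1 at 446 ± 5.07 in rMSC and 2925 ± 51.4 in control (-2.71 ± 0.53, adjusted p = 0.00149). In control against GFPpos, Sparcl1 and Smoc1 were lower (-3.99 ± 0.47 and -5.73 ± 0.35) and Fstl1 and Smoc2 higher (1.5 ± 0.51 and 0.91 ± 0.26), 2 higher and 3 lower of 5 in all (median -1.76).

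Ifitm3, a widely expressed interferon-induced relative of Ifitm5, was at 839 to 904 CPM in rMSC, 920 to 1028 in control and 659 to 1101 in GFPpos, and 77.1 to 89.8 in GFPneg, while Ifitm5 was under 0.5 CPM in every culture library. Of 5 tested relatives, 1 was higher and 1 lower in rMSC against control (median -0.06) and 2 lower in control against GFPpos (median 0.19). Ifitm1 was at 0.479 ± 0.188 CPM in rMSC, 1.43 ± 0.33 in control and 34.7 ± 18.2 in GFPpos.

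Of the 12 tested relatives of Car3, 1 was higher and 1 lower in rMSC against control (median -0.02), and 2 were higher and 3 lower in control against GFPpos (median 0.21). Car1 and Car2, abundant in red cell precursors, ran against Car3 in the fresh cells: Car2 was at 2402, 1801 and 1298 CPM in GFPpos and 7408, 7691 and 7218 in GFPneg, as erythroid markers were at 991 to 1867 in GFPpos and 6409 to 6901 in GFPneg. Car5b, a mitochondrial member, was at 31.7 ± 1.55 CPM in rMSC and 3.24 ± 0.27 in control (log2 3.29 ± 0.32, adjusted p = 1.02e-05). Since Car3 is known from muscle and fat, their markers stand beside it. Skeletal muscle markers summed to 12.7 to 17.4 CPM in GFPpos and 23.5 to 29.2 in GFPneg, with Myh1, Myh2 and Myh4 at 0 in all 12 libraries and Ckm at no more than 0.0358 CPM. Adipocyte markers summed to 183 to 268 CPM in GFPpos and 60.5 to 68.7 in GFPneg, with Plin1 at no more than 0.421 CPM in any library. Adipoq, a gene of fat and of perivascular stroma that this sum leaves out, was at 1521, 1437 and 2451 CPM in GFPpos and at most 0.709 in GFPneg. The part of these in Car3 was not tested.

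Other osteoblast lineage genes were also higher in GFPpos than in GFPneg. Of 13 tested, 13 were higher in GFPpos against GFPneg (median 10.85), beside 40.5% of all genes tested. In control against GFPpos 12 were lower and 1 higher (median -5.85, or -5.44 with a gene at 0 at its bound), beside 35.9% and 32.5%. In rMSC against control 4 were higher and 2 lower, beside 24.5% and 25.5%. No median is given there, since Dlx6 was at 0 in both groups and Col13a1 at 0 in rMSC. Dlx5, a transcription factor of the lineage, was at 25.5 ± 0.65 CPM in rMSC and 0.150 ± 0.086 in control (log2 7.38 ± 0.47, adjusted p = 5.01e-07), against 41.1 ± 4.32 in GFPpos. Osteoprotegerin (Tnfrsf11b), the decoy receptor of RANKL, was at 1748 ± 45.3 CPM in rMSC and 23.0 ± 1.43 in control (6.25 ± 0.40), against 6.42 ± 2.88 in GFPpos. Cthrc1, a collagen triple helix repeat protein, was at 1.07 ± 0.32 CPM in rMSC and 41.7 ± 1.16 in control (-5.28 ± 0.26). The lineage's master factors are named after their values were seen: Runx2 was at 50.6 ± 2.48 CPM in rMSC, 33.7 ± 1.11 in control and 97.3 ± 27.96 in GFPpos, and Sp7 at 1.42 ± 0.54 in rMSC, 1.57 ± 0.34 in control and 90.4 ± 20.0 in GFPpos. Neither was called in rMSC against control (adjusted p = 0.192 for Runx2 and 0.811 for Sp7).

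**Figure D4:**
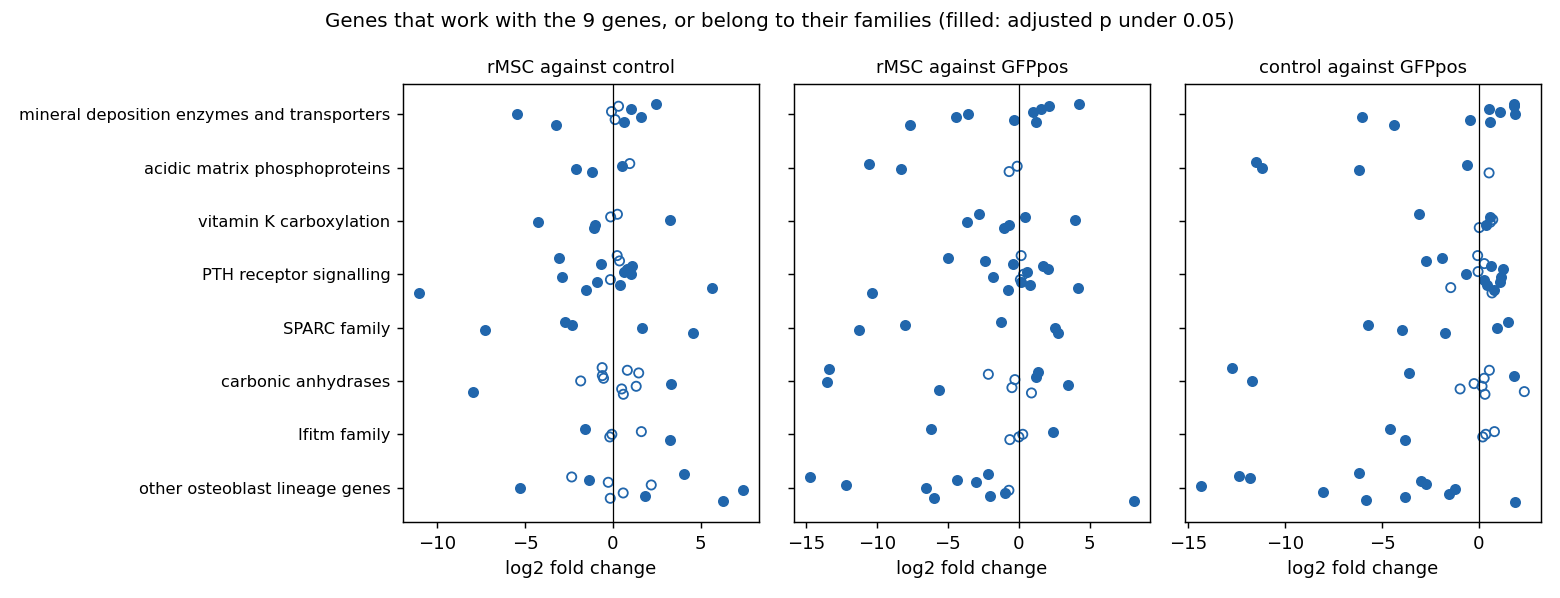
Log2 fold changes of the genes of 8 partner lists in rMSC against control, rMSC against GFPpos and control against GFPpos, with filled points for genes called at an adjusted p under 0.05. Genes at 0 in all 3 libraries of either group are not drawn, and in rMSC against control each list has called genes on both sides of 0.

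Of 7 tested cartilage markers, 2 were called higher in rMSC against control, a count near the 24.5% of all genes tested. They summed to 951 to 1001 CPM in rMSC and 110.3 to 111.4 in control, nearly all of the difference in those 2 genes, with Comp at 449 to 491 in rMSC and 8.67 to 9.79 in control, and Col10a1, a gene of hypertrophic chondrocytes, at 429 to 493 in rMSC and 0.253 to 0.446 in control. Col10a1 was at most 0.0354 CPM in GFPpos. Other cartilage genes, named after their values were seen, were not called: Acan and Col9a1 were at 0 in all culture libraries, Col2a1 was at 11.5 ± 0.87 CPM in rMSC and 3.80 ± 0.03 in control (adjusted p = 0.423), and the factor gene Sox9 at 32.8 ± 0.58 in rMSC and 97.1 ± 0.59 in control (log2 -1.57 ± 0.62, adjusted p = 0.0552). Fibroblast markers summed to 15876 to 17042 CPM in rMSC and 43153 to 44649 in control. Of these 8 genes 6 were called lower and 1, S100a4, higher, beside 25.5% and 24.5% of all genes tested. The fibroblast sum differed mainly by Col3a1, at 120.4 ± 5.58 CPM in rMSC and 28348 ± 657 in control. Fn1, the most abundant in rMSC, was at 15473 ± 602 CPM in rMSC and 14941 ± 402 in control (adjusted p = 0.93). The part of these marker differences in the members' values was not tested.

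Over the 12 libraries, the members' patterns were compared with each other and with those of other genes. Likeness was measured as the root mean square difference of log2 CPM, each gene centred on its own mean, among 9352 genes with a mean of at least 20 CPM in 1 group. Among the members the closest pairs were Bglap and Bglap2 (1.25), Bglap3 and Ifitm5 (1.28) and Sparc and Pth1r (1.90), and the farthest pair was Car3 and Sparc (7.34). Outside the list, the collagen gene Col22a1 (1.42) and Dmp1 (1.64) were nearest to Bglap, and Lepr (1.54) and Entpd3 (1.55) to Bglap2. A2m (2.04) and Adipoq (2.19) were nearest to Ibsp, and Serpina3f (0.84) and the proteoglycan gene Lum (0.86) to Alpl. Sparc was nearest to Wisp2 (0.83), Serpine2 (0.97) and the collagen chaperone gene Serpinh1 (1.04), and Pth1r to Chrdl1 (0.84), Rai2 (0.88) and the osteoblast factor gene Sp7 (0.91). Nearest to Ifitm5 were Sftpa1 (0.86), Eva1a (0.87) and Ptprz1 (0.89), and to Bglap3 Colec11 (0.92), Sftpa1 (0.99) and Cbln2 (1.05). Car3 was nearest to Lcp2 (1.73), H2-Q10 (1.97) and Tubb1 (2.06), with group means of 0.117 CPM or less in the cultures. These 12 libraries share 4 groups, so the measure follows the group levels, and it is given as a description.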

How the data were processed

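Raw counts per gene symbol were deposited by the authors, 1 file per library, each with the same 24062 genes. Per the submitters' processing notes, STAR 2.4.1c, featureCounts 1.4.6 and the mm10 build were used. Per the labels' protocols, RNA of 1000 to 5000 sorted cells went through SMART-Seq v4 and Nextera XT kits and was read as 150 bp single ends. Settings for strand and for reads matching several genes are not given in the sources used here. The 27 symbols turned into dates (0.183 to 0.369% of counts) were left out, and 5450 genes were at 0 throughout. No replicate pair agreed within counting noise, so each library counts as 1 sample.

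Counts were fitted in R 4.3.3 with edgeR 4.0.16 (TMM factors, filterByExpr, quasi-likelihood F-test), with 4 groups over all 12 libraries (8 residual and 2.52 prior degrees of freedom) and Benjamini-Hochberg adjustment over the 15163 genes that passed the filter. A gene was called at an adjusted p under 0.05. All 9 members passed, and 7 would pass on the 6 culture libraries alone (not Bglap3 and Car3). SE is the absolute log2 fold change over the root of F. Levels are CPM with TMM factors, and RPKM uses the union of GENCODE M21 exons. Fits were tested on simulated data.

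The members and lists were chosen with earlier results of these data known. Named were all members, up to 4 called genes of each list with the largest change and at least 20 CPM in the higher group, the members' families, up to 3 genes of the highest CPM per marker list, and up to 3 nearest genes per member. Alternatives were DESeq2 1.42.0, voom with quality weights (limma 3.58.1), RLE factors, scaling without the members and the 20 most abundant genes, no filter or 50 counts in 3 libraries, each pair of groups alone, a replicate block, the Bglap genes summed, and libraries left out. Whether the replicate numbers of the labels pair the libraries is not given in the sources used here, and the main fit did not use them.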

Additional observations from a re-analysis of the deposited data

How the results depend on the processing

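Of the members' fold changes under the alternatives, 733 kept their direction and side of the threshold, 16 lost the call, 4 gained it and 4 changed sign, and of the counts of called members and genes 256 stayed within 1.5 times and 8 did not. Members called lower in rMSC against control were 1 with DESeq2, against 2, and 1 to 3 with a library left out, and members called higher were 1 with the Bglap genes summed (then counted as 1 gene), against 2, and 2 to 3 with a library left out. Uncalled differences of rMSC against control changed sign for Ibsp with voom (0.11) and without control replicate 2 (-1.37 to 2.83 over the libraries left out), and for Ifitm5 with voom (0.05) and without control replicate 1 (-0.52 to 0.54). The cause was not tested. Bglap3 was called higher in rMSC against control without rMSC replicate 3 (3.33, adjusted p = 0.0387), and Sparc lower with voom (adjusted p = 2.31e-07) and without GFPneg replicate 3 (0.000132), which the fit of the pair alone also gave. Bglap2 stayed between 4.16 and 4.59 under its 21 alternatives and was called in all. As a replicate block, the number changed no member's call but that of Sparc in control against GFPpos (-2.02, adjusted p = 0.0576). Deviations of libraries with the same number correlated at 0.16, 0.15 and 0.02 in GFPpos against GFPneg and between -0.02 and 0.02 in the other comparisons. GFPpos 1 and 2 were most like the GFPneg library of their number, and GFPpos 3 was most like GFPneg 2. Each rMSC library was most like the control library of its number, at 0.0139 to 0.0209. No culture library was most like the GFPpos library of its number. Whether the numbers pair the libraries cannot be told from these values. Low counts limit Car3 and Bglap3 in the cultures (at most 5 in a library), while Ibsp (0, 38 and 2 counts in control) and Ifitm5 (32, 8 and 12) also varied between libraries.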
